A study of Saccharomyces cerevisiae with 4 samples.

Results

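The PAU, DAN and TIR genes of budding yeast encode a family of small secreted proteins, many of them mannoproteins of the cell wall. All 30 genes whose standard name is PAU, DAN or TIR followed by digits were found among the 7126 features of the table, namely 24 PAU, 2 DAN and 4 TIR genes. The names DAN2 and DAN3 are synonyms of PAU23 and PAU24 in the RefSeq annotation and were counted there. Total RNA depleted of ribosomal RNA was sequenced from 2 dbp2null and 2 wild-type cultures of Saccharomyces cerevisiae to ask how the transcriptome differs without the DEAD-box RNA helicase Dbp2.

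The dbp2null strain, BTY115, is a MATa haploid with the KanMx cassette in place of DBP2, and it also carries ura3Δ0, leu2Δ0, his3Δ0, TRP1, met- and lysΔ. The wild-type strain is a MATa haploid with his3Δ1, leu2Δ0, met15Δ0 and ura3Δ0. Both were grown in YPD, a rich glucose medium, at 30 °C to early log phase, and the labels name 1 strain per genotype, so the absence of DBP2 and the other strain differences cannot be told apart. The design text speaks of a biological replicate, and the libraries are numbered 1 and 2 in each genotype. How oxygen was supplied is not given in the labels.

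The TIR and DAN proteins and many Pau proteins are known from cells that grow without oxygen or in the cold, where they take the place of wall mannoproteins made in air. In air, haem supports the repressor Rox1, which acts with Mot3 and the Tup1-Cyc8 corepressor on these genes. When sterol or haem runs short, the transcription factor Upc2 activates them through short sites upstream of the coding sequence. Most PAU genes lie near chromosome ends, where many near-identical copies have arisen.

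Some copies cannot be told apart by their coding sequence, and the share of such sequence differs widely among PAU genes. In the R64 genome, which is the assembly also known as sacCer3, the coding sequences of PAU1 and PAU14 differed at 0 of 363 bases. PAU6 and PAU18 differed at 0 of 363 bases, and PAU21 and PAU22 at 0 of 495 bases. Over the 24 PAU genes a median of 73.5% of the 50-base stretches of the coding sequence were found elsewhere in the genome on either strand. The share was 100% for PAU1, PAU6, PAU9, PAU14, PAU18, PAU21 and PAU22, but 8.59% for PAU17 and for PAU23, 24.7% for PAU5 and 0% for PAU7. The TIR and DAN genes were at 0% for TIR2, TIR3 and DAN1, 13.0% for TIR1, 19.9% for DAN4 and 20.2% for TIR4. Read length is not given in the sources used here, so the 50-base share describes the sequences and not the mapping.

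The first 120 bases of 3 near-identical PAU genes are shown because they make plain how little separates the copies. Capitals mark bases that differ from PAU1, which lies at chrX:9019-9138 on the minus strand over this stretch. PAU10 lies at chrIV:1523249-1523368 and PAU12 at chrVII:1080306-1080425, both on the plus strand. PAU10 differs from PAU1 at 1 of these bases and PAU12 at 3.
PAU1: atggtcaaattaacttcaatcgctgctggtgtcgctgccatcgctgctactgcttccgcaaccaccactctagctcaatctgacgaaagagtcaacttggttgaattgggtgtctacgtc
PAU10: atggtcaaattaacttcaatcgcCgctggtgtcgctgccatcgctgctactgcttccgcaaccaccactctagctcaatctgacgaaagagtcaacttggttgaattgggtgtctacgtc
PAU12: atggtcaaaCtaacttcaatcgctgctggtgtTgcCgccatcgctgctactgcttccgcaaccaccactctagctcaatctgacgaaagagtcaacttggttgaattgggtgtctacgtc

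PAU17 and PAU23 are each other's closest member by sequence, with 23 differing bases of 375, yet they have few 50-base stretches in common with any locus. Their first 120 bases follow, at chrXII:94747-94866 on the plus strand for PAU17 and at chrXII:222940-223059 on the minus strand for PAU23. Capitals mark the 10 bases at which PAU23 differs from PAU17.
PAU17: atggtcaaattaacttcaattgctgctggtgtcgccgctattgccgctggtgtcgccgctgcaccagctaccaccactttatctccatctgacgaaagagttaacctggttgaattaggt
PAU23: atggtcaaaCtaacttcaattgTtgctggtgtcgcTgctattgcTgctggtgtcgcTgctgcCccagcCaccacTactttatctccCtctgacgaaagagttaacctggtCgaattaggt

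Short sites known for Upc2 were found upstream of every member. Within 500 bases before the start codon, TCGTATA or TCGTTTA on either strand occurred in 30 of 30 member windows, against 14.8% of 5986 windows of protein-coding genes. ATTGTT, the core of the Rox1 site, occurred in 22 of 30 member windows and 48.9% of all windows. AGGCA, a Mot3 site, occurred in 30 of 30 and 51.8%. In 6 cases a match overlapped a match of another of these motifs in the members' windows. A match is a description of letters in a window, and copies near chromosome ends can share their upstream sequence.

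For the members that stood apart in the comparison below, a short window around the Upc2 match farthest upstream is shown, written along the strand of the gene. Upc2 and Rox1 matches that lie wholly within the window are in capitals. Matches not shown begin at -300 and -202 (PAU17, Rox1), at -152 and -68 (PAU23, Rox1) and at -357 (DAN4, Rox1). DAN4 has a further Upc2 match at -136. A match on the other strand appears as its reverse complement. The windows are chrV:174867-174933 (plus strand) for TIR1, chrVI:99815-99881 (minus) for PAU5, chrXII:94482-94548 (plus) for PAU17, chrXII:223294-223360 (minus) for PAU23 and chrX:715926-715992 (minus) for DAN4.
TIR1: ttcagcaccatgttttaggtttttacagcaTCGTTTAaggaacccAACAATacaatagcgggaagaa
PAU5: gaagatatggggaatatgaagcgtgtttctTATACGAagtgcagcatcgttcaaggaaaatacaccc
PAU17: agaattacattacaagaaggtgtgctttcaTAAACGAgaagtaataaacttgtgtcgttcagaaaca
PAU23: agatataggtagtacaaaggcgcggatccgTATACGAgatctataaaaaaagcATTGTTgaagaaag
DAN4: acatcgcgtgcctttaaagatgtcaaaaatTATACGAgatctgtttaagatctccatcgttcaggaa

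The deposited values are FPKM, fragments per kilobase, scaled to each library's mapped fragments, so levels can be set side by side between genes of like length. Low values fell on whole-number steps, from which depth can be read. Among the 13 members of 363 bases and the 5 of 375 bases, 69 of 72 values lay within 0.05 of a whole multiple of 1 step for each length and library; the steps were found on genes of these lengths, members included. These steps correspond to mapped totals, in units of 1e+06 fragments, of 40.0 and 90.2 in dbp2null replicates 1 and 2 and of 33.4 and 31.3 in wild-type replicates 1 and 2. Among 50 longer features with low values that were not used to find the steps, 41, 42 and 45 were whole in dbp2null replicate 1 and wild-type replicates 1 and 2. The best fit in these libraries took 200.6, 200.8 and 200.4 bases off the length of a feature. Levels and sums across genes of unlike length therefore depend on that correction, and PAU7 and PAU9 are shorter than the bases taken off. In dbp2null replicate 2 it was 5 of 50, against 10% for values spread evenly, so that library's depth rests on the 363-base genes alone. Read this way, each of the 18 members stood on 81 to 234 and 303 to 850 fragments in dbp2null and on 46 to 177 and 43 to 153 fragments in wild type. Counting error alone would then be at most 11.1% and 5.74% in dbp2null and 14.7% and 15.2% in wild type.

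One library stood apart. FPKM summed to 5.01e+07 and 3.37e+06 in dbp2null replicates 1 and 2 and to 5.29e+07 and 3.22e+07 in wild type, and log2 values correlated across 6781 features with r = 0.81 between the dbp2null libraries and r = 0.97 between the wild-type libraries. DBP2 itself read 2.90 and 1.03 FPKM in dbp2null, compared with 213 and 199 FPKM in wild type. All 6 a-cell marker genes were present, summing to 16482 and 685 FPKM in dbp2null, compared with 25084 and 32593 FPKM in wild type. MFA2 was the largest part of that sum, at 14777 and 347 FPKM in dbp2null, compared with 23641 and 30039 FPKM in wild type. The markers went both ways, with MFA2 and BAR1 lower in both dbp2null libraries, STE6 and ASG7 higher, and MFA1 and STE2 overlapping. The 4 alpha-cell marker genes summed to 52.2 and 70.4 FPKM in dbp2null, compared with 29.3 and 23.5 FPKM in wild type, with no marker at 0 and the lowest, MF(ALPHA)1, at 2.77 and 4.01 FPKM in dbp2null, compared with 0.804 and 0.859 FPKM in wild type. Of the 30 members, 22 were higher in dbp2null replicate 2 than in replicate 1, by a median of 0.42 on the log2(FPKM + 1) scale. The wild-type libraries differed by -0.10 on the same measure.

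Genotypes were compared with limma across every feature whose mean reached 1 FPKM, a filter that all 30 members passed. Most members read higher in dbp2null, but none was called at an adjusted p below 0.05. The calls were 0 higher and 0 lower of 30, against 1.19% of the 6781 features tested (0.973% higher and 0.221% lower). At an unadjusted limma p below 0.05 there were 17 members higher and 3 lower, against 32.5% and 5.41% of all features. At an adjusted p below 0.1 there were 14 members higher and 2 lower, against 27.3% and 3.73% of all features, or 31% in all. With a pseudocount of 5, 1 member was called higher and 1 lower, against 5.6% and 0.664% of all features. Without dbp2null replicate 1, 10 were called higher and 2 lower, against 16.7% and 21.9% of all features. The smallest p of an exact permutation test for any one gene is 0.333 at this number of libraries, so the calls depend on limma's pooled spread.

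Both dbp2null values lay above both wild-type values in 22 of 30 members and below them in 3, against 49.8% and 20.7% of all tested features. The median difference over the 30 members, dbp2null minus wild type on the log2(FPKM + 1) scale, was 0.79. Over all features of the table it was 0.23, so the members' median lay 0.56 above it. Relative to all features it was 0.13 with quantile normalization. Median centring moves every feature alike and cannot change this value, and rescaling to protein-coding features can hardly do so. Under quantile normalization 8 members lay above and 8 below wild type, and no direction of the group was left there. The 22 of 30 counts near-identical copies separately, although they can share reads. With copies linked by at least 95% protein identity summed, 6 of 12 lay above wild type and 2 below. Their median difference then lay 0.23 above that of all features.

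**Figure D1:**
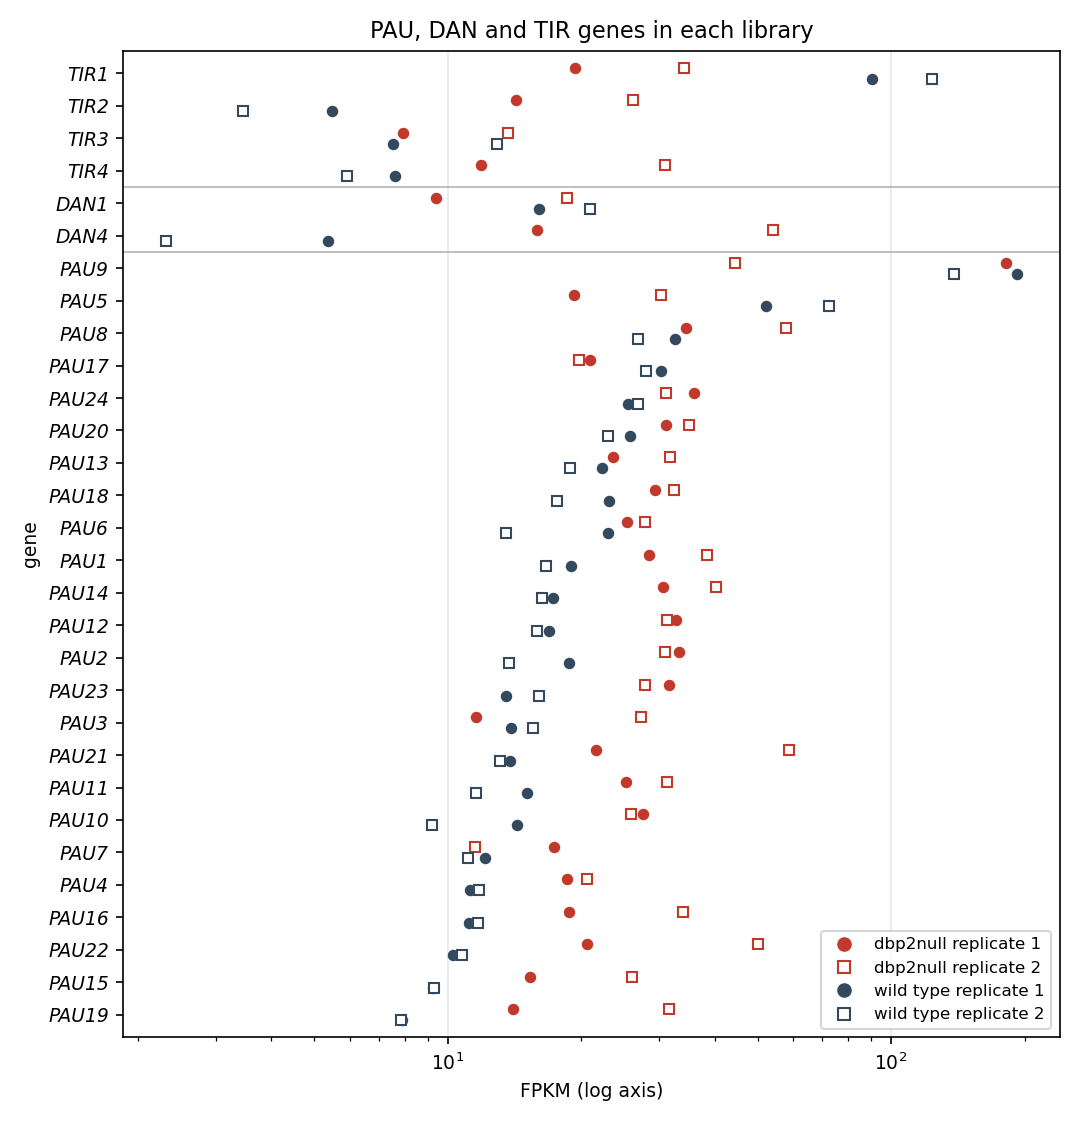
FPKM of each of the 30 members in each library, on a log axis, with TIR genes at the top, DAN genes next and PAU genes in order of their wild-type mean. TIR1, PAU5 and PAU17 are the 3 genes with both dbp2null values below both wild-type values, and 22 genes have both above, a count that was 8 with quantile normalization. With near-identical copies summed, 6 of 12 had both above.

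The TIR genes code for serine- and threonine-rich wall mannoproteins, named for their likeness to Tip1. TIR1 (YER011W, chromosome V, 175248 to 176012) read 19.3 and 34.1 FPKM in dbp2null, compared with 90.7 and 124 FPKM in wild type. Its groups did not overlap, and its log2 fold change was -2.002 (SE 0.35, limma adjusted p = 0.0559). In wild type TIR1 was the second highest of the 30 members in both libraries, whereas in dbp2null it ranked 18 and 9. The value stayed negative in all 15 other settings, between -2.40 and -1.19. Changes of filter, trend or block cannot move it, so those settings are no separate support for its sign. In fits of all 4 libraries at an adjusted p below 0.05, TIR1 was called with a pseudocount of 5 and with libraries blocked in crossed pairs. The crossed pairs were an alternative added after seeing the data. Without dbp2null replicate 1 the TIR1 value was -1.61.

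TIR2 and TIR4 lie beside each other on chromosome XV and were low in wild type. TIR2 (346195 to 346950) read 14.2 and 26.2 FPKM in dbp2null, compared with 5.49 and 3.45 FPKM in wild type, a log2 fold change of 1.92 (SE 0.41, limma adjusted p = 0.062). TIR4 (344335 to 345798) read 11.9 and 30.8 FPKM in dbp2null, compared with 7.596 and 5.91 FPKM in wild type, with a log2 fold change of 1.39 (SE 0.49, limma adjusted p = 0.116). In both genes all dbp2null values were above all wild-type values, while neither passed the test. TIR3 (chromosome IX, 333727 to 334536) overlapped between genotypes, at 7.91 and 13.7 FPKM in dbp2null, compared with 7.51 and 12.9 FPKM in wild type.

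TIR1 and TIR2, whose coding sequences are 73.2% identical, thus lay on opposite sides. In wild type TIR1 stood above TIR2 in each library, by 90.7 against 5.49 FPKM and by 124 against 3.45 FPKM. In dbp2null the 2 genes were close, at 19.3 against 14.2 FPKM and at 34.1 against 26.2 FPKM. Summed over the 4 TIR genes, the level was 53.3 and 105 FPKM in dbp2null, compared with 111 and 146 FPKM in wild type, with TIR1 holding most of the wild-type sum. The log2 ratio of the sums was -0.77, and it was 0.051 with protein-coding rescaling, -0.28 without dbp2null replicate 1 and -1.26 without dbp2null replicate 2.

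The DAN genes, named for their delayed response to the loss of oxygen, lie next to each other on chromosome X. DAN4 (712255 to 715740) read 15.9 and 54.2 FPKM in dbp2null, compared with 5.38 and 2.31 FPKM in wild type. It had the largest positive difference of all members, 2.73 on the log2 scale (SE 0.68, limma adjusted p = 0.0699), and the lowest wild-type level. The dbp2null libraries differed by more than the wild-type pair, and the difference was 1.88 without dbp2null replicate 2 and 3.59 without replicate 1. DAN1 (708811 to 709707) overlapped between genotypes, at 9.40 and 18.6 FPKM in dbp2null, compared with 16.1 and 20.9 FPKM in wild type, with a log2 fold change of -0.44 (SE 0.37, limma adjusted p = 0.417).

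The PAU genes code for short seripauperins, which share their sequence with the start of the TIR and DAN proteins but lack the long serine-rich stretch. Of the 24, 19 had both dbp2null values above both wild-type values, 2 had both below and 3 overlapped, where all tested features gave 49.8% above and 20.7% below. Near-identical copies are counted separately here, although they can share reads. Their median was 25.2 and 31.2 FPKM in dbp2null, compared with 17.1 and 15.7 FPKM in wild type. The sum of FPKM over the 24 genes was 749 and 796 FPKM in dbp2null, compared with 631 and 556 FPKM in wild type. That difference, 0.38 on the log2 scale, became 0.034 with median centring and -0.035 with quantile normalization. The sum, PAU9 included, thus holds no direction across scalings. PAU9, a feature of 129 bases, made up 182 and 44.4 FPKM of the dbp2null sums and 193 and 139 FPKM of the wild-type sums. The sum without PAU9 was not compared.

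PAU5 and PAU17 were the 2 PAU genes with both dbp2null values below both wild-type values. PAU5 (YFL020C, chromosome VI, 99231 to 99599), one of the few that lie away from chromosome ends, read 19.3 and 30.3 FPKM in dbp2null, compared with 52.1 and 72.5 FPKM in wild type. Its log2 fold change was -1.31 (SE 0.31, limma adjusted p = 0.0678), negative in all 15 other settings, of which those of filter, trend and block cannot move it. It ranked 3 of 30 in both wild-type libraries and 19 of 30 in both dbp2null libraries. PAU17 (YLL025W, chromosome XII, 94747 to 95121) read 20.9 and 19.8 FPKM in dbp2null, compared with 30.3 and 28.0 FPKM in wild type, a log2 fold change of -0.50 (SE 0.16, limma adjusted p = 0.1007) that became 0.30 with protein-coding rescaling.

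PAU23 (YLR037C, chromosome XII, 222685 to 223059), the closest relative of PAU17, stood on the other side. It read 31.6 and 27.9 FPKM in dbp2null, compared with 13.5 and 16.1 FPKM in wild type, with a log2 fold change of 0.96 (SE 0.19, limma adjusted p = 0.0586). In fragments, PAU23 had 221 and 440 in dbp2null and 79 and 88 in wild type. PAU17 had 146 fragments in dbp2null replicate 1 and 177 and 153 in wild type, while its value in dbp2null replicate 2 was 1 of the 3 that missed a whole number. Between the genotypes the order of the pair thus turned round, with PAU23 above PAU17 in both dbp2null libraries and below it in both wild-type libraries. Few 50-base stretches of either gene occur elsewhere.

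Among the copies, PAU1, PAU2, PAU4, PAU6, PAU8, PAU10 to PAU14, PAU18, PAU20 and PAU24 form a group of 13 linked by proteins of at least 95% identity. In all 13 both dbp2null values were above both wild-type values, against 49.8% of all tested features. Their log2 differences ran from 0.34 to 1.15, with a median of 0.72. Since reads can pass between them, these 13 are not 13 separate observations. PAU12 (YGR294W) had the lowest adjusted p of the PAU genes, at 32.7 and 31.2 FPKM in dbp2null, compared with 16.9 and 15.9 FPKM in wild type (log2 fold change 0.92, SE 0.16, limma adjusted p = 0.0559). PAU24, in the same group, read 35.9 and 31.1 FPKM in dbp2null, compared with 25.5 and 26.9 FPKM in wild type (log2 fold change 0.34, SE 0.17, limma adjusted p = 0.221), and its sign turned with quantile normalization (-0.16). PAU20 (30.999 and 34.9 FPKM in dbp2null, 25.7 and 22.9 FPKM in wild type) did the same (-0.055). So did PAU4 (-0.22), PAU6 (-0.13) and PAU13 (-0.20) of this group.

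The identical pairs show how far copies with one sequence can differ in this table. PAU1 read 28.4 and 38.4 FPKM in dbp2null, compared with 18.9 and 16.7 FPKM in wild type. PAU14, with the same coding sequence, read 30.5 and 40.2 FPKM in dbp2null, compared with 17.3 and 16.3 FPKM in wild type. In fragments this is 185 against 199 and 564 against 591 in dbp2null, and 103 against 94 and 85 against 83 in wild type. PAU6 and PAU18, also identical, lay farther apart, with 165 against 191 and 409 against 476 fragments in dbp2null, and 125 against 126 and 69 against 90 in wild type. PAU21 and PAU22 differed in every library, with 13.8 against 10.3 FPKM in wild-type replicate 1. Identical coding sequences thus did not give equal values in this table.

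PAU21 and PAU22 had the largest positive differences among PAU genes, and their dbp2null libraries differed by more than their wild-type libraries. PAU22 read 20.6 and 50.02 FPKM in dbp2null, compared with 10.3 and 10.7 FPKM in wild type (log2 fold change 1.53, SE 0.44, limma adjusted p = 0.0832). PAU21 read 21.6 and 58.9 FPKM in dbp2null, compared with 13.8 and 13.1 FPKM in wild type (log2 fold change 1.35, SE 0.49, limma adjusted p = 0.123). Without dbp2null replicate 2 the differences were 0.91 and 0.64, and without replicate 1 they were 2.15 and 2.05. The sign was positive in all 14 other settings for both genes, but changes of filter, trend or block cannot alter it.

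A second group linked in the same way holds PAU3, PAU15, PAU16, PAU17, PAU19 and PAU23, of 372 or 375 bases each. PAU19 was the lowest PAU gene in wild type, at 7.88 and 7.86 FPKM, and read 14.0 and 31.5 FPKM in dbp2null (log2 fold change 1.32, SE 0.42, limma adjusted p = 0.0941). PAU16 read 18.8 and 33.9 FPKM in dbp2null, compared with 11.1 and 11.7 FPKM in wild type, and PAU15 read 15.3 and 26.0 FPKM in dbp2null, compared with 9.25 and 9.32 FPKM in wild type. In each of these 3 the wild-type libraries agree within 1 FPKM while the dbp2null libraries differ by more than 10 FPKM. PAU3 overlapped, at 11.6 and 27.2 FPKM in dbp2null, compared with 13.9 and 15.5 FPKM in wild type.

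Of the short members, PAU9 is only 129 bases long in the annotation and PAU7 168 bases, and FPKM of so short a feature depends strongly on how length was corrected. PAU9 read 182 and 44.4 FPKM in dbp2null, compared with 193 and 139 FPKM in wild type, the highest member in 3 of the 4 libraries. Its log2 fold change of -0.85 (SE 0.73, limma adjusted p = 0.427) was 0.15 without dbp2null replicate 2. PAU8, at 34.5 and 57.8 FPKM in dbp2null, compared with 32.5 and 26.9 FPKM in wild type, stood among the 6 PAU genes of highest mean without a call (log2 fold change 0.58, SE 0.31, limma adjusted p = 0.231).

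**Figure D2:**
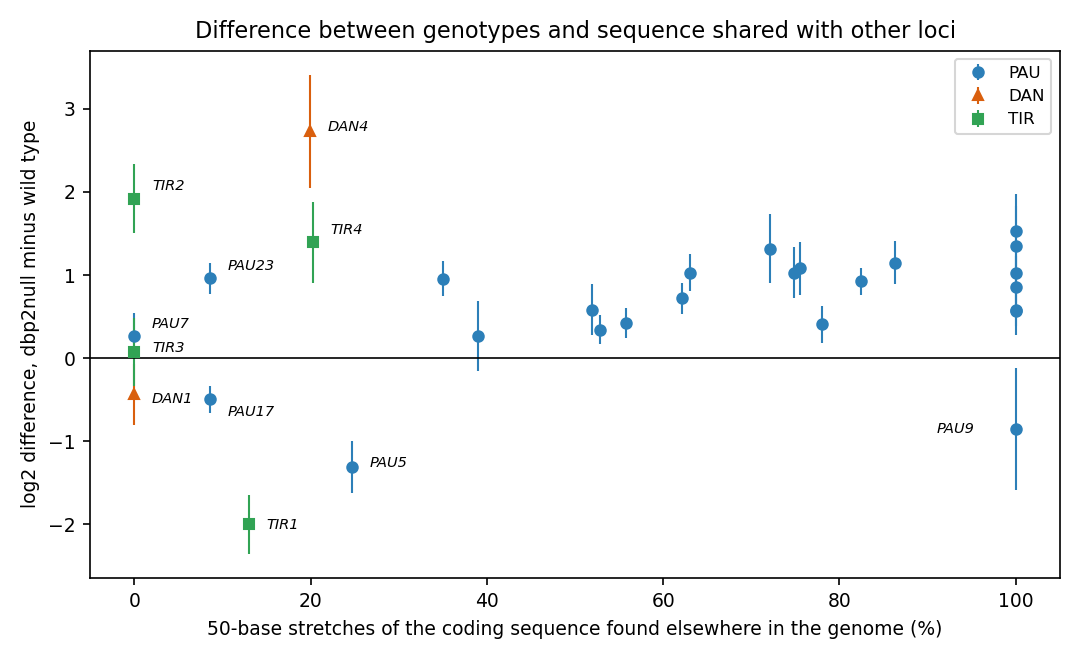
Difference in log2(FPKM + 1) between dbp2null and wild type (vertical axis, bars are limma's SE) against the share of 50-base stretches of each coding sequence that occur elsewhere in the genome (horizontal axis, percent). Members with at least 50% shared sequence lie above 0 except PAU9, while members with less lie on both sides, from -2.002 for TIR1 to 2.73 for DAN4; with quantile normalization PAU4, PAU6, PAU13, PAU20 and PAU24 turned below 0.

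Members differed by their place on the chromosome and by how much sequence they share, and these go together. Of the 19 PAU genes within 25000 bases of a chromosome end, 17 had both dbp2null values above wild type and 0 below (49.8% and 20.7% of all tested features), with a median difference of 0.86. Of the 5 farther in, PAU2, PAU5, PAU7, PAU17 and PAU23, 2 lay above and 2 below, with a median of 0.27. Of the 18 PAU genes with at least 50% of their 50-base stretches elsewhere, 17 lay above and 0 below, and of the 6 with less, 2 above and 2 below. Near-identical copies were counted separately here, so these genes are not all separate observations. Place and shared sequence cannot be told apart with these genes, and no test between the groups was made.

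Other genes near chromosome ends also read higher in dbp2null. Of the 310 features within 25000 bases of an end that are no members, 260 had both dbp2null values above wild type and 19 below (49.8% and 20.7% of all tested features). Among them 5 were called higher and 0 lower (0.973% and 0.221% of all tested features). Their median was 32.6 and 50.5 FPKM in dbp2null, compared with 13.1 and 8.67 FPKM in wild type, and their median difference lay 1.68 above that of all features (1.23 with quantile normalization). The members' own value on that scale was 0.56. Set side by side, the members read closer to wild type than these neighbours did, which was not tested.

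Genes that are off in vegetative haploid cells give the level at which silent genes read. The 24 meiotic and sporulation genes listed for this had medians of 10.6 and 17.01 FPKM in dbp2null, compared with 3.79 and 2.99 FPKM in wild type. All 24 lay above wild type in both dbp2null libraries, against 49.8% of all features. Of them 0 were called, against 1.19% of all tested features. An unadjusted limma p below 0.05 with a higher value was found in 22, against 32.5% of all features. With quantile normalization 8 of the 24 lay above and 1 below, and their median relative to all features was 0.27, against 1.41 without it. TIR2, TIR3 and TIR4 lay within the range of these genes in both wild-type libraries, save TIR3 in replicate 2 (12.9 FPKM). DAN4 also lay within it in both wild-type libraries, at 5.38 and 2.31 FPKM. In dbp2null TIR2, TIR3 and TIR4 lay within the meiotic range of both libraries. DAN4 did so in dbp2null replicate 1 (15.9 FPKM) and stood above it in replicate 2 (54.2 FPKM). TIR1 stood above the highest meiotic value of the same library in both wild-type libraries (12.8 and 10.5 FPKM) and in dbp2null replicate 2 (32.2 FPKM), and not in dbp2null replicate 1 (24.4 FPKM). The part of such a shift in the members' differences was not tested. In bulk RNA, fewer cells with a transcript and less of it per cell cannot be told apart.

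**Figure D3:**
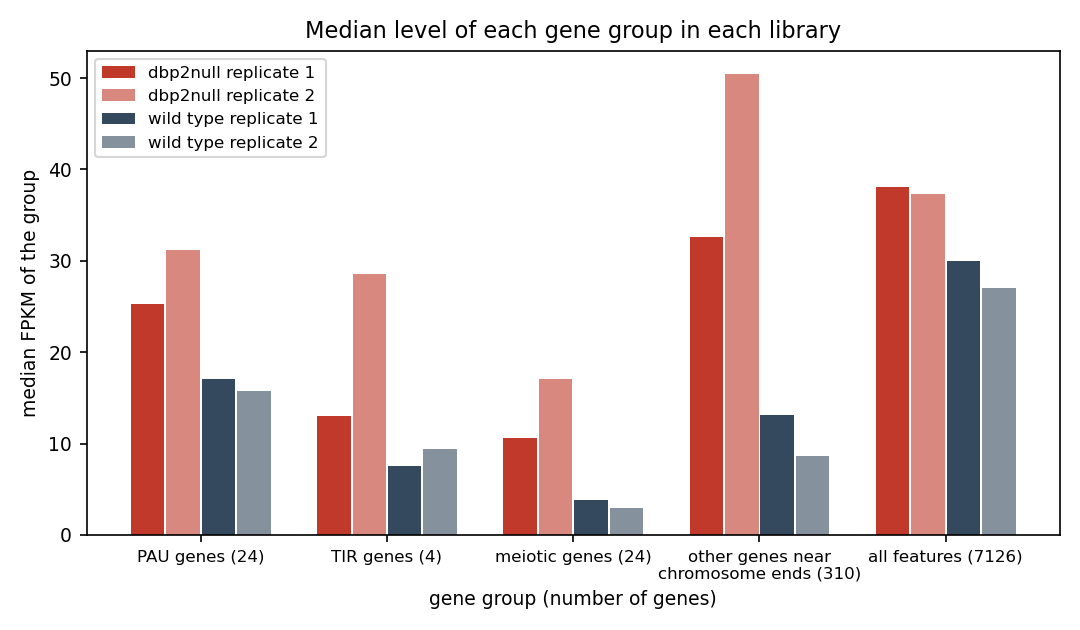
Median FPKM per library of the 24 PAU genes, the 4 TIR genes, 24 meiotic genes, 310 other features near chromosome ends and all 7126 features. PAU medians were 25.2 and 31.2 FPKM in dbp2null, compared with 17.1 and 15.7 FPKM in wild type, and the medians of the meiotic and chromosome-end groups were higher in dbp2null in these deposited values; with quantile normalization 8 of the 24 meiotic genes lay above wild type in both dbp2null libraries.

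No regulator of these genes passed the test. Of 12, 0 were called in either direction, against 1.19% of all tested features. In both dbp2null libraries 10 lay above wild type and 1 below (49.8% and 20.7% of all tested features), with a median difference 0.27 above that of all features. With quantile normalization 3 lay above and 4 below, with a median of -0.018. ROX1, the repressor of low-oxygen genes, read 121 and 131 FPKM in dbp2null, compared with 50.9 and 43.0 FPKM in wild type, a log2 fold change of 1.41 (SE 0.24, limma adjusted p = 0.0559) that stayed positive in all 15 other settings. Among these, changes of filter, trend or block cannot move the ROX1 value. UPC2, the activator, read 23.2 and 31.9 FPKM in dbp2null, compared with 21.1 and 17.8 FPKM in wild type (limma adjusted p = 0.201). HAP1, the haem-dependent activator, read 47.1 and 45.7 FPKM in dbp2null, compared with 37.9 and 32.5 FPKM in wild type (limma adjusted p = 0.199).

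MOT3, which represses the DAN genes together with Rox1, read 28.4 and 30.5 FPKM in dbp2null, compared with 23.7 and 15.8 FPKM in wild type. The corepressor gene TUP1 read 66.6 and 77.6 FPKM in dbp2null, compared with 101 and 79.8 FPKM in wild type, and its partner CYC8 read 39.8 and 48.4 FPKM in dbp2null, compared with 43.1 and 28.5 FPKM in wild type. Neither difference passed the test (limma adjusted p = 0.42 and 0.428).

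Other genes of the low-oxygen response went both ways. Of 11, 1 was called lower and 0 higher, against 0.221% and 0.973% of all tested features. Both dbp2null values lay above wild type in 4 and below in 5, against 49.8% and 20.7% of all tested features. ANB1, a hypoxic translation factor gene, fell to 11.2 and 12.8 FPKM in dbp2null, against 77.0 and 93.8 FPKM in wild type (log2 fold change -2.73, SE 0.20, limma adjusted p = 0.0415). HEM13, a haem synthesis gene, read 28.6 and 23.4 FPKM in dbp2null, compared with 58.3 and 65.6 FPKM in wild type (log2 fold change -1.23, SE 0.20, limma adjusted p = 0.0559). COX5B read 289 and 119 FPKM in dbp2null, compared with 100 and 89.9 FPKM in wild type (limma adjusted p = 0.236). OLE1 read 195 and 126 FPKM in dbp2null, compared with 203 and 207 FPKM in wild type (limma adjusted p = 0.484). CYC7, a cytochrome c isoform of low oxygen, read 63.5 and 36.9 FPKM in dbp2null, compared with 14.5 and 7.17 FPKM in wild type (log2 fold change 2.14, SE 0.43, limma adjusted p = 0.06). TIR1, PAU5, ANB1 and HEM13 thus read lower in dbp2null and CYC7, DAN4, TIR2 and TIR4 higher, within one set of genes known for low oxygen.

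The sterol importer genes AUS1 and PDR11, which are switched on with the DAN and TIR genes without oxygen, were low throughout. PDR11 read 9.46 and 16.6 FPKM in dbp2null, compared with 4.91 and 4.10 FPKM in wild type (limma adjusted p = 0.0906). AUS1 read 10.04 and 16.8 FPKM in dbp2null, compared with 11.1 and 10.9 FPKM in wild type (limma adjusted p = 0.6).

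Wall proteins of growth in air split as well. Of 12, 1 was called higher and 0 lower, against 0.973% and 0.221% of all tested features. Both dbp2null values lay above wild type in 5 and below in 4, against 49.8% and 20.7% of all tested features. SPI1, a wall protein gene of stress and stationary phase, rose to 296 and 209 FPKM in dbp2null, against 35.9 and 36.5 FPKM in wild type (log2 fold change 2.74, SE 0.30, limma adjusted p = 0.0465). CWP1, a major mannoprotein gene in air, read 91.8 and 49.0 FPKM in dbp2null, compared with 102 and 107 FPKM in wild type (limma adjusted p = 0.281). TIP1, the relative for which the TIR genes are named, read 195 and 79.9 FPKM in dbp2null, compared with 213 and 302 FPKM in wild type (limma adjusted p = 0.245). CWP2 read 8318 and 635 FPKM in dbp2null, compared with 5557 and 7476 FPKM in wild type, with the dbp2null libraries on either side. Higher without a call were SED1 (1434 and 839 FPKM in dbp2null, 567 and 506 FPKM in wild type) and HSP150 (1004 and 766 against 647 and 628 FPKM). YGP1 was higher too, at 232 and 133 FPKM in dbp2null, compared with 39.5 and 31.5 FPKM in wild type (limma adjusted p = 0.0559). The ANB1 call was made in 8 of 15 other settings and the SPI1 call in 6 of 15.

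**Figure D4:**
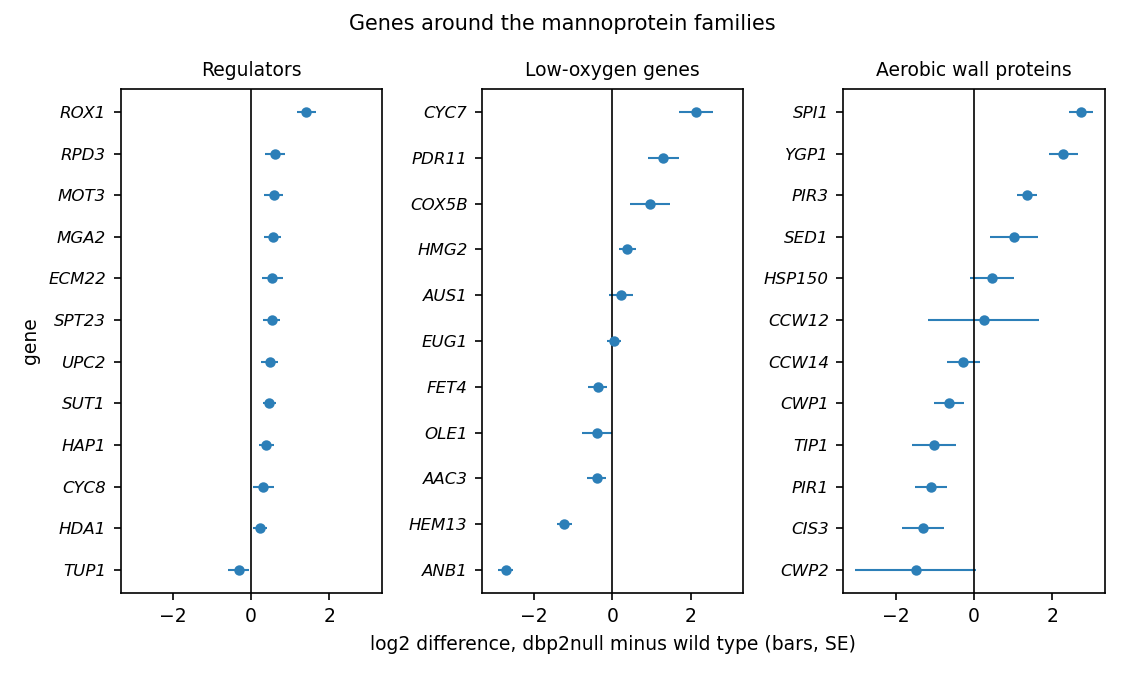
Difference in log2(FPKM + 1), dbp2null minus wild type, with limma's SE, for 12 regulators, 11 low-oxygen genes and 12 wall protein genes. ANB1 (-2.73) and SPI1 (2.74) were the 2 genes called; most regulators lie slightly above 0 and 6 of 12 do so with quantile normalization.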

How the data were processed

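RNA was measured in 2 dbp2null and 2 wild-type libraries, grouped by their titles. The authors deposited FPKM in one table, and per the submitters' processing notes sacCer3 was the build and the tools named were TopHat, Cufflinks, CASAVA and edgeR, with order, roles and versions not given in the sources used here. Whether strand was used in counting is not given either. After 3 blank rows were left out, 6079 of 7126 features matched the RefSeq annotation of R64 by locus tag or symbol. Differences were computed here as log2(FPKM + 1), which understates changes of low genes, and tested two-sided in R 4.3.3 (limma 3.58.1, variance trended on the mean), with Benjamini-Hochberg adjustment over the 6781 features whose mean reached 1 FPKM. The fit was run on simulated data with noise set below the fitted spread, which does not show how it performs on these libraries. Sequence identity came from global alignments (Biopython 1.88). Named genes were all TIR and DAN members; PAU genes that were called, the 6 of highest mean, the 3 largest differences each way and up to 8 called under an alternative; up to 8 of each list, called genes first and then by mean; and ROX1, UPC2 and HAP1. PAU3, PAU7, PAU23 and the list genes named outside these limits were picked after their values were seen. Members and lists were chosen with earlier results of these data known. Depth read from whole-number steps is an estimate, and counting error covers fragments only. P-values set the difference between genotypes against a within-genotype spread that limma pools across features, for these 4 libraries only.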

Additional observations from a re-analysis of the deposited data

How the results depend on the processing

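The count of members called, 0 higher and 0 lower, was the same with a pseudocount of 0.1, no filter, a filter at a mean of 10 FPKM, median centring, quantile normalization, protein-coding rescaling, no trend and near-identical copies summed. It became 1 and 1 with a pseudocount of 5, 14 and 2 at an adjusted p below 0.1, and 0 to 10 and 0 to 2 with a library left out, where all 12 calls came without dbp2null replicate 1. In that setting 16.7% of all features were called higher and 21.9% lower. Over all features the calls, 66 higher and 15 lower, became 2 and 6 with a pseudocount of 0.1, 380 and 45 with 5, 4 and 9 when the mean had to reach 10 FPKM, 3 and 10 with median centring, 1 and 4 with quantile normalization, 48 and 52 with protein-coding rescaling, 29 and 12 without the trend, 1849 and 253 at an adjusted p below 0.1, and 0 to 1133 and 0 to 1484 with a library left out. With the replicate number as a block there were 6 and 10 over all features and still 0 and 0 among members. Same-numbered libraries shared only a number, with a correlation of deviations of -0.11. With the pairing crossed, an alternative added after seeing the data, 2454 and 213 features and 18 and 3 members were called. The members' median difference of 0.79 was 0.45 with median centring, 0.13 with quantile normalization, 1.58 with protein-coding rescaling and 0.45 with copies summed, and 0.64 to 0.88 with a library left out. The log2 ratios of summed levels became 0.034, -0.035 and 1.20 for PAU with median centring, quantile normalization and protein-coding rescaling, against 0.38. For DAN, against 0.94, they were 0.17 with quantile normalization and 1.77 with protein-coding rescaling (0.18 to 1.71 with a library left out), and for TIR, against -0.77, -1.32 and 0.051 (-1.26 to -0.28 with a library left out). Signs turned for TIR3 with median centring (-0.26), quantile normalization (-1.36) and a library left out (-0.29 to 0.43), for DAN1 with protein-coding rescaling (0.36) and a library left out (-0.89 to 0.019), for PAU17 with protein-coding rescaling (0.30), for PAU20 (-0.055) and PAU24 (-0.16) with quantile normalization and for PAU9 with a library left out (-1.86 to 0.15). Signs also turned for PAU3 with median centring (-0.070), quantile normalization (-0.71) and a library left out (-0.32 to 0.85). PAU7 turned in the same settings (-0.070, -0.78 and -0.012 to 0.54). With quantile normalization PAU4 (-0.22), PAU6 (-0.13) and PAU13 (-0.20) turned as well. The cause was not tested. Fragment counts were at least 43 in each library in the 18 members for which they were read, while each genotype has 2 libraries and many copies share their sequence. With wild-type replicate 1 left out no feature was called by limma, although 1492 had an unadjusted p below 0.05.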
